A study of Mus musculus with 19 samples.

Results

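The 8 genes described here encode proteins of the matrix that the heart lays down after injury or under strain: Postn, Cilp, Fn1, Tnc, Spp1, Sparc, Fbn1 and Eln. They were listed by symbol, selected on earlier results of these data that showed 16-week levels of such genes in KO and WT hearts, and make up 8 of the 55536 genes in the deposited count tables. The measurement was RNA sequencing of ventricular tissue from adult mice with an inducible, heart-specific loss of Mpc1, and from wild-type mice. The product of Mpc1 is part of the carrier that lets pyruvate enter the mitochondrial matrix. Ribosomal RNA was depleted and the libraries were stranded. The groups were KO-8 (MPC1 knockout, 8 weeks after induction, 4 libraries), WT-8 (wild type at the same time, 5 libraries), KO-16 (knockout at 16 weeks, 5 libraries) and WT-16 (wild type at 16 weeks, 5 libraries). The strain, the age at induction, the promoter and recombinase behind the deletion, the inducing agent, and whether the wild-type mice carried or received any of these are not given in the sources used here. Nor is it stated that the libraries of a group are separate animals, so p-values measure the spread between libraries alone.

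Matrix proteins of this kind fall into 2 classes. Periostin (Postn), cartilage intermediate layer protein (Cilp), tenascin-C (Tnc), osteopontin (Spp1) and SPARC are matricellular: they bind collagens, growth factors or cell-surface receptors and are better known as signals and organisers than as load-bearing material. Fibronectin (Fn1) forms the provisional fibrils on which collagen is assembled, while fibrillin-1 (Fbn1) and elastin (Eln) build the microfibrils and the elastic core of elastic fibres. In an injured heart many of these proteins come largely from fibroblasts that become activated, and periostin is a widely used mark of that state. In a bulk tissue library, fewer cells of a type and less RNA per cell cannot be told apart, and the same holds for more of either.

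All 8 genes lie on GRCm38 chromosomes that the count tables annotate with Ensembl 96, and levels refer to the summed exons of each gene. Postn covers chromosome 3, 54361109 to 54391037, on the plus strand, and Cilp covers chromosome 9, 65265180 to 65280605, plus strand. Tnc lies on chromosome 4, 63959785 to 64047015, minus strand, and Sparc on chromosome 11, 55394500 to 55423183, minus strand. Spp1 lies on chromosome 5, 104435118 to 104441050, plus strand, and Eln on the same chromosome, 134702593 to 134747323, minus strand. Fn1 occupies chromosome 1, 71585520 to 71653200, minus strand, and Fbn1 chromosome 2, 125300594 to 125507993, minus strand. Genes annotated on the other strand of Fn1, Tnc, Fbn1 and Eln had at most 16 counts in any library, and Gm42793, which overlaps Spp1 on the same strand, had at most 2.

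The promoters of Postn, Cilp and Tnc are shown because these genes had the highest fold changes of the 8 at both times. Each runs from 250 bases before to 50 bases after the RefSeq start of the gene on GRCm38.p6, 5′ to 3′ on the strand of the gene. The windows are chr3:54360857-54361156 on the plus strand for Postn, chr9:65264930-65265229 on the plus strand for Cilp and chr4:64046966-64047265 on the minus strand for Tnc. Capitals mark matches to a motif searched for.
Postn: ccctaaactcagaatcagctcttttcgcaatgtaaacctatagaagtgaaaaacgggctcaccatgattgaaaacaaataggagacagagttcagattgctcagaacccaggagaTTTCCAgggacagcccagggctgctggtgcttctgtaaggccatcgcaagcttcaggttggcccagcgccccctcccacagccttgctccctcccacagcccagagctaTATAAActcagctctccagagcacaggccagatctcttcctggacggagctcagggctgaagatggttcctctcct
Cilp: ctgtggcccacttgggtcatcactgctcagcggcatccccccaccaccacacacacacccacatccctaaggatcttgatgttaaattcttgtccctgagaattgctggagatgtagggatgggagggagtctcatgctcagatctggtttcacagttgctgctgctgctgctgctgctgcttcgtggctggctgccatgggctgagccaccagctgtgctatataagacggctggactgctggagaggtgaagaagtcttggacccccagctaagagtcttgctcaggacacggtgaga
Tnc: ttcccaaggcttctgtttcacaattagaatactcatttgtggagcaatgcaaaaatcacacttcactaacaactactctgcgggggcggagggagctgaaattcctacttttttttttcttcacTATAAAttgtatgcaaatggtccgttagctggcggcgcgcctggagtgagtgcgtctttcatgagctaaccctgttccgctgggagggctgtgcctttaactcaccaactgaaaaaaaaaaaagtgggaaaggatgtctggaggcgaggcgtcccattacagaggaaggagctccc
The motifs searched on both strands were GGAATG for TEAD factors, TGANTCA for AP-1, GTCTGNC for SMAD proteins, TATAAA for the core promoter box and TTTCCA for NFAT. The Postn window held TATAAA with its first base at position -26 and TTTCCA at position -135, counted from the start of the gene. In the Tnc window TATAAA began at position -126, and none of the 5 motifs matched in the Cilp window. Only the exact letters were searched, so the tatataag of the Cilp window is not marked. Of 32851 mouse promoter windows of the same length, 13.6% held TATAAA, 21.4% TTTCCA, 14.7% GGAATG, 7.81% TGANTCA and 15.2% GTCTGNC. A match describes the letters of the window and shows no binding. Entries for Fn1 and Eln were not in the table used. The RefSeq starts in the windows for Sparc and Fbn1 lay 3103 and 1555 bases from the gene starts of the count annotation, and these windows are not printed.

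Library totals were 16.5 to 19.5 M (mega) counted read pairs in KO-8, 17.4 to 27.5 M in WT-8, 9.54 to 26.9 M in KO-16 and 8.63 to 19.7 M in WT-16. Mpc1 was at 8.41 to 11.98 CPM (counts scaled by library size) in KO-8 and 63.6 to 82.3 CPM in WT-8, and at 9.03 to 26.2 CPM in KO-16 and 61.6 to 83.9 CPM in WT-16. The KO libraries thus lay below the WT libraries of their time, and KO-16 replicate 1 kept the most Mpc1 of the KO libraries. Markers of cardiomyocytes, 8 genes such as Myh6 and Tnnt2, summed to 100223 to 107289 CPM in KO-8, 105093 to 108084 CPM in WT-8, 83423 to 121778 CPM in KO-16 and 113507 to 129799 CPM in WT-16. Most of each sum came from Ttn, named after its values were seen, at means of 63439, 63067, 63677 and 73340 CPM in these groups. At 16 weeks the share of counts on the 18S rRNA gene CT010467.1 (chosen with its values known) was 1.71% to 30% in KO-16 and 6.88% to 39.1% in WT-16, but at most 0.0666% in any 8-week library. The 2 files of each 16-week sample were taken as sequencing runs other than those of the 8-week samples, which the sample labels do not state. Time and run thus cannot be told apart, and levels at the 2 times are given side by side with no test between them. Y-linked transcripts were above 1 CPM in KO-16 replicate 4 and WT-16 replicate 5 alone. The part of 18S share and of sex in the results was not tested. Alternative fits used the 16-week libraries over 20% 18S alone, or left out the libraries with Y-linked transcripts.

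Because the genes were selected on 16-week levels, the KO-16 against WT-16 values are given as a description. The KO-8 against WT-8 values come from other libraries and were tested. The genes were still chosen with earlier results of these data known, and the 8-week p-values do not take that choice into account. At 8 weeks, 7 of the 8 genes passed the filter on low counts, and Postn, Cilp, Tnc, Sparc, Fn1, Fbn1 and Eln were all higher in KO-8 hearts than in WT-8 hearts, by 1.42-fold to 4.80-fold, at an adjusted p under 0.05 (edgeR quasi-likelihood test, Benjamini-Hochberg adjustment over all 15224 genes tested). Over all genes tested, 3.99% passed as higher in KO-8 and 4.29% as lower. For all 7, each of the 4 KO-8 libraries lay above each of the 5 WT-8 libraries, a separation in that direction that 5.01% of all tested genes showed. Spp1, the remaining gene, was too low to test. One other choice of fit ended every one of these calls. In a fit to all 19 libraries, which applies the wider spread of the 16-week libraries to the 8-week ones, the adjusted p was 0.191 for Cilp and up to 0.718 for Fn1, while the fold changes hardly moved. The common coefficient of variation was 0.171 in that fit and 0.0935 in the fit to the 8-week libraries.

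**Figure D1:**
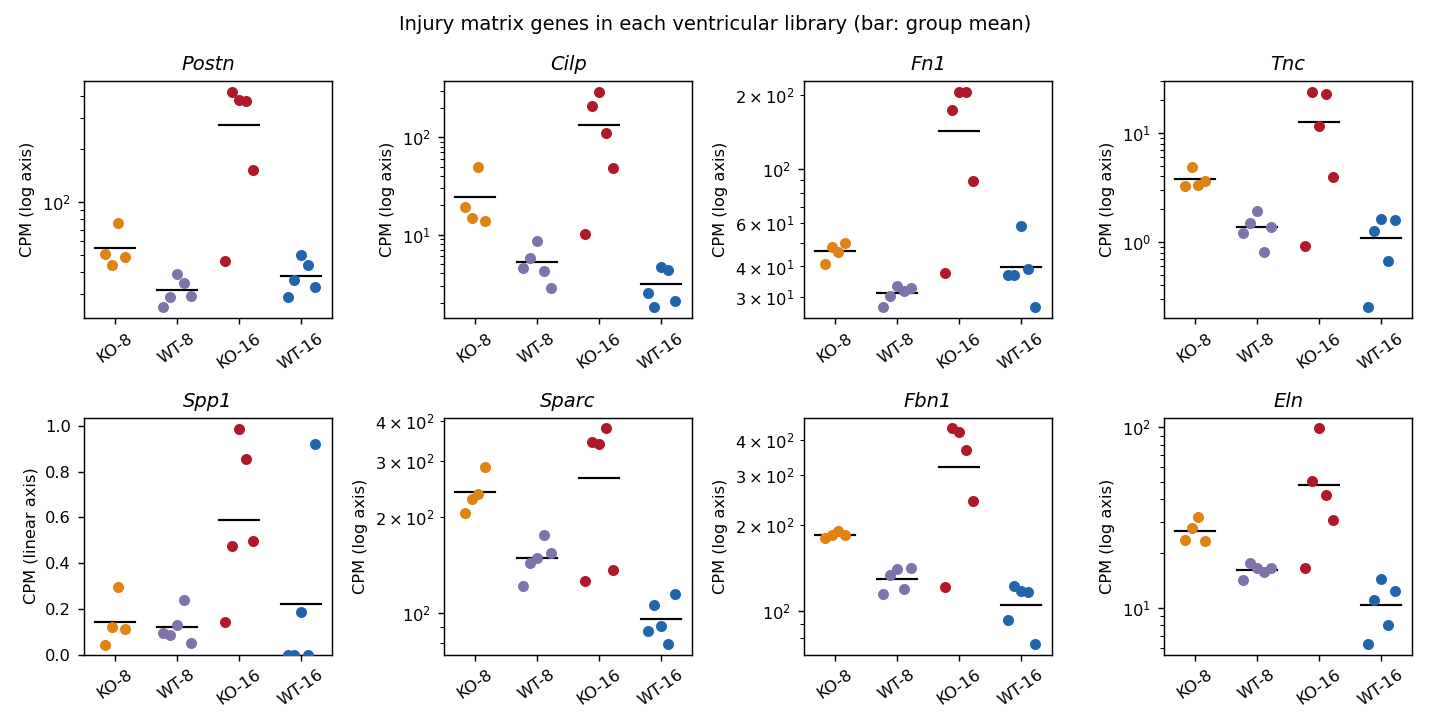
CPM of the 8 genes in each library of KO-8, WT-8, KO-16 and WT-16, with 1 point per library and a bar at the arithmetic mean of the group; the axis is logarithmic except for Spp1. KO-8 points lie above WT-8 points for every gene but Spp1, and in KO-16 the lowest point is replicate 1 for each of the same 7 genes, as with Postn, where replicate 1 is at 46.7 CPM and the next lowest KO-16 library at 152 CPM.

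Postn encodes periostin, a secreted protein that binds collagen and integrins and is made by activated fibroblasts. Its level was 50.8, 43.8, 76.6 and 48.6 CPM in KO-8 replicates 1 to 4, against 25.5, 29.2, 39.1, 34.98 and 29.4 CPM in WT-8 replicates 1 to 5. The lowest KO-8 library was above the highest WT-8 library. KO-8 over WT-8 came to 0.80 on the log2 scale (SE 0.15, adjusted p = 0.00478, edgeR), or 1.74-fold. It was 0.60 without KO-8 replicate 3, the highest library, and still passed. At 16 weeks Postn was at 46.7, 421, 376, 376 and 152 CPM in KO-16 replicates 1 to 5, against 29.1, 36.1, 49.96, 43.9 and 33.1 CPM in WT-16. Replicates 2 to 4 of KO-16 were highest, replicate 5 lay between them and the WT-16 libraries, and replicate 1 lay inside the WT-16 range. The group means were 274 ± 165 CPM in KO-16 and 38.4 ± 8.44 CPM in WT-16 (SD, n = 5 each), and log2 KO over WT was 2.83 (SE 0.46), or 7.10-fold.

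Cilp encodes a matrix protein first known from cartilage, which binds TGF-beta and is also made by cardiac fibroblasts. Among the 8 genes it had the highest fold change at both times. In KO-8 it was at 19.3, 14.8, 49.4 and 13.7 CPM, against 4.59, 5.78, 8.59, 4.21 and 2.82 CPM in WT-8. Replicate 3 of KO-8 stood well above the other KO-8 libraries, yet each of those was also above every WT-8 library. The log2 fold change was 2.26 (SE 0.37, adjusted p = 0.00211, edgeR), or 4.80-fold, and without KO-8 replicate 3 it was 1.65 (adjusted p = 0.00108). In KO-16 Cilp was at 10.1, 211, 294, 112 and 48.0 CPM, against 2.53, 1.81, 4.69, 4.32 and 2.07 CPM in WT-16. Here the groups did not overlap, since even replicate 1, the lowest KO-16 library, was above the highest WT-16 library. WT-16 libraries held 9 to 102 Cilp read pairs, so the level behind the fold change rests on few counts. The log2 fold change was 5.33 (SE 0.76), or 40.2-fold, and limma-voom, which treats low counts differently, gave 4.53.

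Tnc encodes tenascin-C, a large matrix glycoprotein that is scarce in the healthy adult heart and known from wound edges. In KO-8 it was at 3.27, 4.93, 3.36 and 3.66 CPM, against 1.22, 1.51, 1.92, 0.801 and 1.37 CPM in WT-8. All KO-8 values were close together and above all WT-8 values. On the log2 scale KO-8 was higher by 1.49 (SE 0.20, adjusted p = 0.000521, edgeR), or 2.81-fold. In KO-16 the level was 0.911, 24.0, 11.7, 23.1 and 3.98 CPM, against 0.253, 1.26, 1.61, 0.665 and 1.61 CPM in WT-16. Replicate 1 of KO-16 lay within the WT-16 range and the other KO-16 libraries above it. On the log2 scale KO-16 was higher by 3.42 (SE 0.75), or 10.7-fold, on 1 to 35 read pairs per WT-16 library, and Tnc fell below the filter in 5 of 21 alternative analyses of this time.

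Sparc encodes a collagen-binding glycoprotein that takes part in the processing of procollagen and is abundant in heart. It was at 206, 229, 237 and 287 CPM in KO-8, against 121, 143, 149, 176 and 154 CPM in WT-8. The groups were apart by a margin smaller than the spread within either group. KO-8 was thus higher by 0.69 on the log2 scale (SE 0.10, adjusted p = 0.00113, edgeR), or 1.61-fold. In KO-16 Sparc was at 126, 345, 340, 380 and 136 CPM, against 87.4, 106, 91.1, 79.8 and 115 CPM in WT-16. Replicates 1 and 5 of KO-16 lay just above the highest WT-16 library, and replicates 2 to 4 far above it. Sparc had the smallest 16-week fold change of the 7 genes, a log2 value of 1.47 (SE 0.29), or 2.77-fold.

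Spp1 encodes osteopontin, a secreted integrin ligand that macrophages express strongly after injury. It was barely detected. The summed counts were 14 read pairs in KO-8, with at least 1 in each of 4 libraries, and 16 in WT-8, with at least 1 in each of 5. In KO-16 they came to 45 over 5 libraries, all with a count, and in WT-16 they were 8, from 2 of 5 libraries. Scaled levels were 0.140, 0.474, 0.987, 0.854 and 0.498 CPM in KO-16, against 0, 0, 0.184, 0 and 0.919 CPM in WT-16. The WT-16 library with 0.919 CPM, replicate 5, was above 4 of the 5 KO-16 libraries, so the groups overlapped. Levels at 8 weeks were 0.043 to 0.294 CPM in KO-8 and 0.0518 to 0.240 CPM in WT-8, and also overlapped. With so few counts Spp1 was tested at neither time.

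Fn1 encodes fibronectin, the adhesive glycoprotein of the provisional matrix. In KO-8 it was at 40.8, 48.2, 46.0 and 49.7 CPM, against 27.4, 30.2, 33.2, 31.7 and 32.8 CPM in WT-8. Values within each group were tight, and no WT-8 library reached the lowest KO-8 library. The difference was 0.57 on the log2 scale (SE 0.07, adjusted p = 0.000305, edgeR), or 1.49-fold. In KO-16 Fn1 was at 37.5, 174, 206, 206 and 88.8 CPM, against 36.9, 36.8, 58.3, 38.9 and 27.3 CPM in WT-16. KO-16 replicate 1 was inside the WT-16 range, and the other KO-16 libraries were above it. The difference was 1.83 on the log2 scale (SE 0.38), or 3.56-fold.

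Fbn1 encodes fibrillin-1, the main protein of microfibrils, which also hold latent TGF-beta complexes in the matrix. Its level was 181, 184, 190 and 185 CPM in KO-8, against 114, 134, 141, 120 and 141 CPM in WT-8. The KO-8 libraries were nearly equal, and all were above the WT-8 libraries. This came to 0.51 on the log2 scale (SE 0.07, adjusted p = 0.000434, edgeR), or 1.42-fold, the smallest of the 7 at this time. In KO-16 Fbn1 was at 121, 439, 428, 369 and 244 CPM, against 92.7, 123, 118, 116 and 76.5 CPM in WT-16. Replicate 1 of KO-16 was just below the highest WT-16 library, and the other 4 were well above. This amounted to a log2 fold change of 1.61 (SE 0.29), or 3.04-fold.

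Eln encodes tropoelastin, which is deposited on microfibrils and cross-linked into elastin. In KO-8 it was at 23.9, 27.7, 31.8 and 23.4 CPM, against 14.2, 17.6, 16.6, 15.9 and 16.5 CPM in WT-8. No library of one group reached into the other. The log2 fold change was 0.72 (SE 0.09, adjusted p = 0.000302, edgeR), or 1.65-fold. In KO-16 Eln was at 16.7, 50.6, 98.4, 42.3 and 30.5 CPM, against 6.32, 11.02, 14.4, 7.98 and 12.4 CPM in WT-16. Replicate 3 of KO-16 was the highest, and replicate 1, the lowest KO-16 library, was still above all of WT-16. The log2 fold change was 2.16 (SE 0.39), or 4.48-fold.

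**Figure D2:**
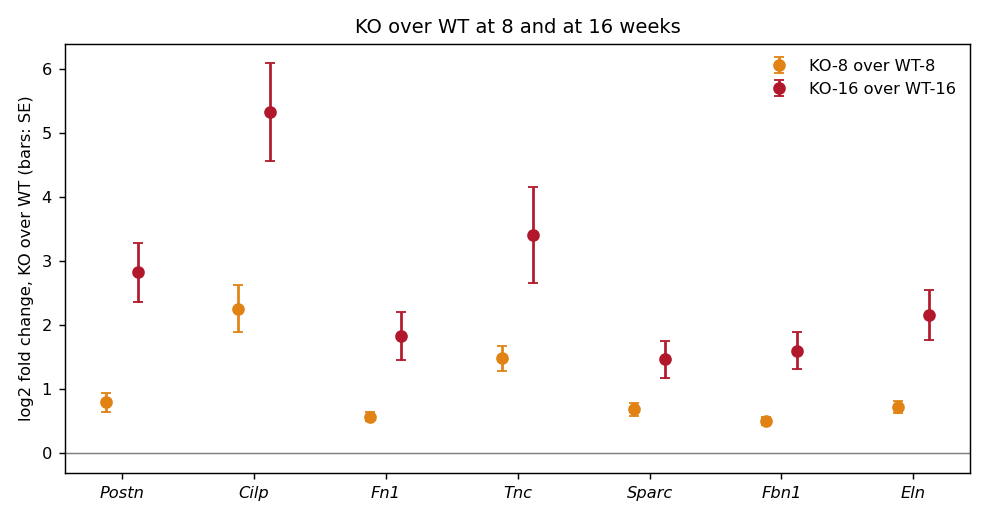
Log2 fold change of 7 genes, KO over WT, at 8 weeks (orange) and 16 weeks (red), with bars for the SE of the edgeR fit. All points are above 0, and Cilp is the highest of the genes at each time, at 2.26 and 5.33.

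Side by side, the fold change was larger at 16 than at 8 weeks for each of the 7 genes, for example 2.83 and 0.80 (log2) for Postn and 2.16 and 0.72 for Eln. The SEs at 16 weeks, 0.29 to 0.76, were also larger than those at 8 weeks, 0.07 to 0.37, and the common coefficient of variation was 0.227 at 16 weeks against 0.0935 at 8 weeks. The genes were selected on their 16-week levels, a choice that favours larger fold changes at that time. The difference between the times was not tested. At 16 weeks, Cilp, Sparc and Eln were 3 of the 8 genes with no overlap between KO-16 and WT-16. That separation in the same direction was seen in 2.09% of the 12277 genes tested at this time, and it enters no test here because the choice of the genes used this contrast. The 2 sequencing files of each 16-week sample gave similar levels where both held at least 10 counts. The later file over the earlier one ranged from 0.963 to 1.36 for Postn over 10 samples and from 0.853 to 1.13 for Cilp over 6.

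The KO-16 libraries differed from each other far more than the KO-8 libraries. Replicate 1 had the lowest level of the KO-16 libraries for 7 of 7 genes and replicate 5 the second lowest for 7 of 7. The highest level was in replicate 2 for 3 genes, in replicate 3 for 2 and in replicate 4 for 2. Summed over the 8 genes, the level was 359, 1665, 1755, 1509 and 704 CPM in KO-16 replicates 1 to 5, against 255 to 338 CPM in WT-16. In KO-8 the same sum was 525 to 635 CPM, against 309 to 389 CPM in WT-8. Relative to the WT-16 mean, the 7 genes had a median ratio of 1.21 in KO-16 replicate 1, with 0.844 for the lowest and 3.27 for the highest gene. The median ratios were 4.86, 9.45 and 5.19 in replicates 2, 3 and 4, and 2.93 in replicate 5. In KO-8 the median ratios to the WT-8 mean were 1.48, 1.55, 1.97 and 1.6.

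Replicate 1 of KO-16, in which these genes were lowest, also had the most Mpc1 of the group, at 26.2 CPM, while the other 4 had 9.03 to 15.9 CPM. Its 18S share was 12.7%, against 1.71%, 5.66%, 30% and 26.1% in replicates 2 to 5. Replicates 4 and 5 had the highest 18S shares of the group, yet the genes were high in the first of them and lower in the second. The part of Mpc1 level and of 18S share in this spread was not tested. Leaving replicate 1 out moved the log2 fold changes at 16 weeks to 3.10 for Postn and 5.63 for Cilp.

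**Figure D3:**
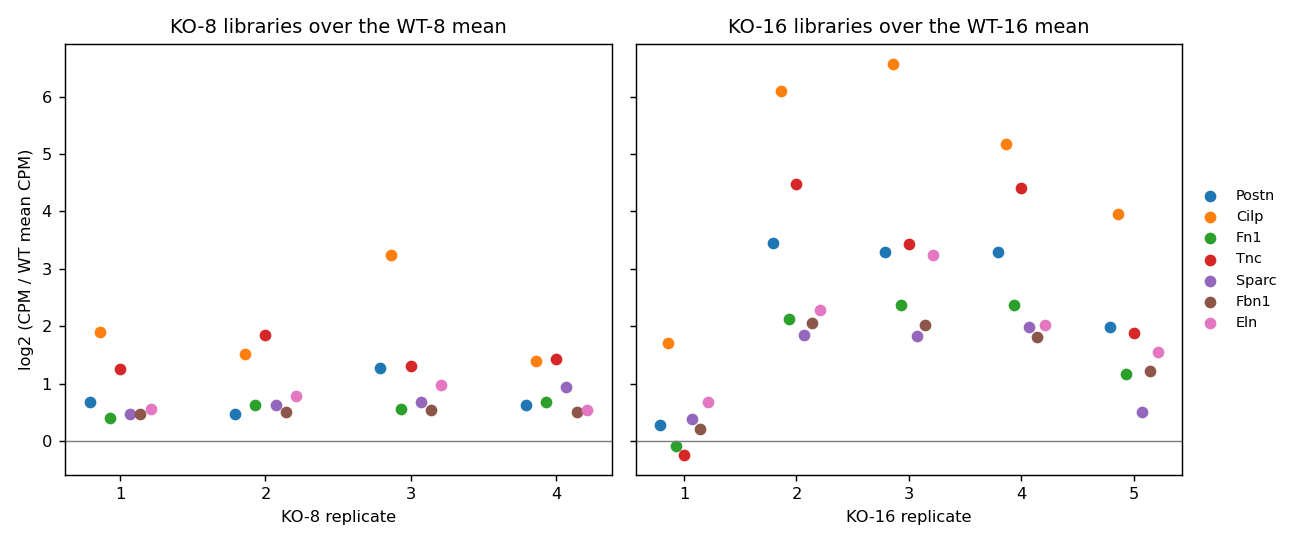
Log2 ratio of each KO library to the mean CPM of WT at the same time, for 7 genes in the 4 KO-8 libraries (left) and the 5 KO-16 libraries (right). In KO-16 replicate 1 the median ratio is 1.21, with Cilp highest at a log2 ratio of 1.71, while replicates 2 to 4 have median ratios of 4.86 to 9.45.

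Set on a common scale of CPM per kilobase of exon, the genes kept much the same order in both WT groups. In WT-8 the mean levels were 39.2 for Sparc, 10.7 for Fbn1, 3.63 for Postn, 2.66 for Fn1, 2.00 for Eln, 1.22 for Cilp, 0.175 for Tnc and 0.0732 for Spp1. WT-16 had the same order, with 25.3 for Sparc at the top and 0.725 for Cilp in sixth place. The ranges of Eln and Cilp and those of Tnc and Spp1 overlapped in both WT groups, as did those of Postn and Fn1 in WT-16, so the order of these neighbours is not resolved. In KO-8 Cilp stood at 5.72 CPM per kilobase, between Postn at 6.31 and Fn1 at 3.95, and its range of 3.22 to 11.6 overlapped both. In KO-16 Cilp stood second at 31.7 CPM per kilobase (2.37 to 69.2), with Sparc above it at 70.0, Postn next at 31.5 and then Fbn1 at 26.4. Every pair of neighbours in the KO-16 order had overlapping ranges.

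**Figure D4:**
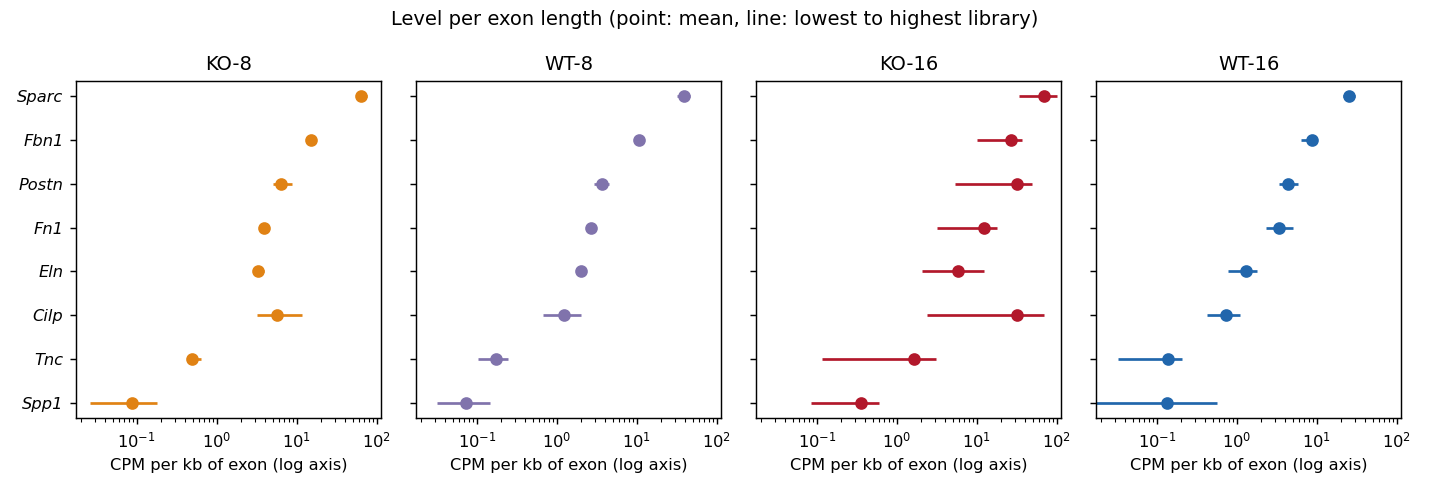
Level of the 8 genes per kilobase of exon on a log axis, with a point at the group mean and a line from the lowest to the highest library (for Spp1 in WT-16 the line starts at the left edge, because some libraries had no count). Sparc is the highest gene in all 4 groups, at 63.3, 39.2, 70.0 and 25.3 CPM per kilobase in KO-8, WT-8, KO-16 and WT-16.

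The gene and marker lists below were chosen with earlier results of these data known. Unless marked otherwise, genes named from them had the lowest adjusted p at 16 weeks. Their 16-week calls are thus a description, and the shares of all genes beside them are no test. Receptors for these proteins had 2 calls at 8 weeks and 1 at 16 weeks. The list held 12 genes, the integrin subunits and other surface receptors that bind periostin, tenascin-C, fibronectin or osteopontin, and all 12 were tested at both times. At 8 weeks 1 rose, 1 fell, and the median log2 fold change was 0.01, against -0.01 over all genes, of which 3.99% rose and 4.29% fell. The one that rose was Itga8, an integrin alpha subunit, at 0.54 (adjusted p = 0.00506), and the one that fell was Sdc4, a syndecan, at -0.42 (adjusted p = 0.0419, both edgeR and both named after their values were seen). The fall of Sdc4 was lost without KO-8 replicate 3, WT-8 replicate 3 or WT-8 replicate 5, and neither call was made in the fit to all 19 libraries. At 16 weeks 1 rose and none fell, with a median of 0.40, against 0.003 over all genes, of which 1.84% rose. Itga9, which pairs with Itgb1 to bind tenascin-C and osteopontin, averaged 70.7 ± 15.5 CPM in KO-16 and 39.3 ± 2.47 CPM in WT-16 (SD, n = 5 each), so that KO-16 was higher by 0.85 on the log2 scale (adjusted p = 0.0181, edgeR), a call lost without KO-16 replicate 4 or without WT-16 replicate 1, 2, 4 or 5. Itgb5 at 1.03 and Itgb3 at 0.999, partners of the alpha-V subunit, had adjusted p-values of 0.0526 and 0.0533. The fibronectin receptor subunit Itga5 had 0.43 (adjusted p = 0.154, edgeR).

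Several partners of Fbn1 and Eln in elastic fibres and microfibrils rose. Of 16 tested at 8 weeks, 9 rose and none fell, with a median log2 fold change of 0.35, beside 8.28% of all genes tested that passed in either direction. Mfap4, a microfibril-associated glycoprotein, averaged 12.6 ± 6.91 CPM in KO-8 (n = 4) and 4.45 ± 1.29 CPM in WT-8 (n = 5), higher by 1.51 on the log2 scale (adjusted p = 0.00482, edgeR). Ltbp2, which binds fibrillin-1, had 1.06 (adjusted p = 0.0208) and Emilin1, an elastin-associated glycoprotein, 0.52 (adjusted p = 0.000125, edgeR). Fbln5, which brings tropoelastin to microfibrils, had 0.31 (adjusted p = 0.105). Lox and Loxl1, the cross-linking oxidases, rose by 0.90 and 0.60 on the log2 scale (adjusted p = 0.00846 and 0.000774, edgeR), both named after their values were seen. The 9 calls became 6 without KO-8 replicate 3 or without WT-8 replicate 1, and 0 in the fit to all 19 libraries.

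At 16 weeks 7 of 15 elastic fibre genes rose and 1 fell, with a median of 1.39, beside 2.79% of all genes tested that passed in either direction and 1.84% that passed as higher in KO-16. Ltbp2 averaged 30.9 ± 32.1 CPM in KO-16 and 0.526 ± 0.584 CPM in WT-16, with KO-16 higher by 5.24 on the log2 scale (SE 1.02, adjusted p = 0.0260, edgeR). Its WT-16 levels were 0 to 1.52 CPM, so the fold rests on very few counts. It was 6.65 without WT-16 replicate 3, and Ltbp2 fell below the filter without KO-16 replicate 2, 3 or 4. Mfap4 averaged 29.5 ± 19.4 CPM in KO-16 and 3.45 ± 1.38 CPM in WT-16, at 3.06 (adjusted p = 0.0168). Emilin1 and Fbln5 had 1.62 and 1.49 (adjusted p = 0.0352 and 0.0305, edgeR). The gene that fell was Efemp1, a fibulin, at -0.86 (adjusted p = 0.0468, edgeR), named after its values were seen, and this call held with 1 library left out only where that was KO-16 replicate 1 or 5. The rises changed with 1 library left out: 0 passed without WT-16 replicate 1, 2 or 5, 1 passed without WT-16 replicate 4 or KO-16 replicate 2, 3 or 4, and 3 without WT-16 replicate 3. Without KO-16 replicate 1, 11 rose, and without KO-16 replicate 5, 9. No rise passed without both male libraries or with limma-voom.

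In a separate list of family relatives no gene passed the test at either time. It held 11 genes of the periostin, Cilp, tenascin, SPARC and osteopontin families, of which 5 were tested at each time. Fbn2, the fibrillin relative of Fbn1, is counted in the elastic fibre list and rose at 8 weeks, by 0.55 on the log2 scale (adjusted p = 0.0286, edgeR, named after its values were seen). At 8 weeks 0 of 5 passed by edgeR, DESeq2 or limma-voom, with 3 at an unadjusted edgeR p under 0.05 and a median of -0.17 (log2). At 16 weeks 0 of 5 passed by any of these tools, with 1 at an unadjusted p under 0.05 and a median of 0.36. Tgfbi, the periostin relative, had log2 fold changes of -0.26 at 8 weeks (adjusted p = 0.0781) and 0.36 at 16 weeks (adjusted p = 0.239, edgeR). Tnxb, a tenascin, had 0.12 and 0.59, and Sparcl1, the SPARC relative, 0.33 and 0.30 at 8 and 16 weeks. Smoc1, another SPARC relative, had -0.31 and 0.66 at the same times. Whether a member and its relative differed in their change was not tested.

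Among 12 other matrix genes known from injured tissue, 11 were tested at each time. At 8 weeks 4 rose and 1 fell, with a median of 0.38, beside 3.99% and 4.29% of all genes. Thbs4, a thrombospondin of stretched tissue, had 0.86 (adjusted p = 0.0192, edgeR), Ccn5 had 1.45 (adjusted p = 0.0214) and Aspn, a small leucine-rich proteoglycan, 0.47 (adjusted p = 0.0276). Ccn1, the one that fell, had -0.47 (adjusted p = 0.0356, edgeR, named after its values were seen), and none fell without KO-8 replicate 1, 2 or 4 or without WT-8 replicate 2 or 3. The 4 rises became 2 without KO-8 replicate 3, WT-8 replicate 2 or WT-8 replicate 4, and 0 in the fit to all 19 libraries. At 16 weeks 6 rose and none fell, with a median of 1.15, beside 1.84% of all genes that rose. Thbs4 averaged 63.1 ± 68.7 CPM in KO-16 and 1.53 ± 0.482 CPM in WT-16, with KO-16 higher by 5.44 on the log2 scale (SE 0.96, adjusted p = 0.0191, edgeR). The KO-16 libraries ranged from 2.17 to 176 CPM, the value was 4.58 without KO-16 replicate 3, and limma-voom did not call Thbs4. Ccn5 had 4.49 (adjusted p = 0.0282), Col12a1, a collagen that lies along fibrils, 3.83 (adjusted p = 0.0283), and Aspn 1.02 (adjusted p = 0.0260, edgeR). The 6 rises became 0 without KO-16 replicate 4 or without WT-16 replicate 1, 2, 4 or 5, 1 without KO-16 replicate 2 or 3, 3 without WT-16 replicate 3, and 9 without KO-16 replicate 1.

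TGF-beta ligands, receptors, SMADs and other genes of the pathway, 10 genes that include known inducers of several of these matrix genes, had 1 call at each time. At 8 weeks 1 of 10 rose by edgeR and none fell, with a median of 0.09, beside 3.99% of all genes that rose. No gene of the list passed in the fit to all 19 libraries, without KO-8 replicate 3 or 4 or without WT-8 replicate 2, 3 or 4. At 16 weeks 1 of 10 rose, the ligand Tgfb3, and none fell, with a median of 0.34, beside 1.84% of all genes that rose. Tgfb3 averaged 19.4 ± 6.56 CPM in KO-16 and 8.09 ± 1.97 CPM in WT-16, with KO-16 higher by 1.22 on the log2 scale (adjusted p = 0.0260, edgeR). Tgfb2 had 1.18 (adjusted p = 0.0722) and the receptor Tgfbr2 0.45 (adjusted p = 0.0857, edgeR) at this time. The call of Tgfb3 was lost without any 1 of WT-16 replicates 1, 2, 4 and 5 or KO-16 replicates 2, 3 and 4.

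**Figure D5:**
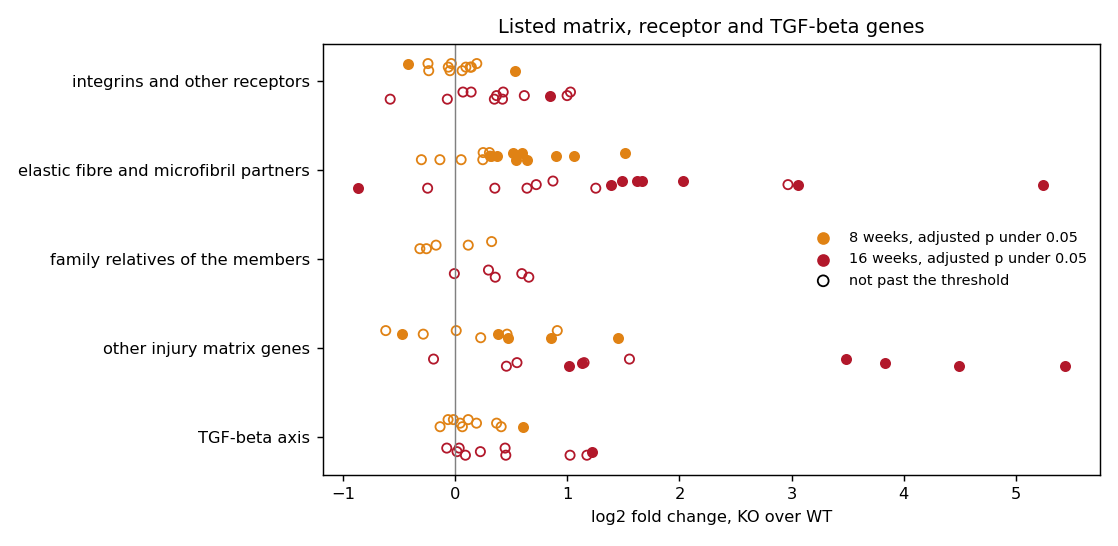
Log2 fold change, KO over WT, of the listed genes at 8 weeks (orange) and 16 weeks (red), with filled points past an adjusted p of 0.05 and open points not past it. Of the elastic fibre list, 9 of 16 points at 8 weeks and 8 of 15 at 16 weeks are filled, and of the receptor list 2 of 12 and 1 of 12.

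Markers of the cell types that could supply these transcripts are given beside the results, and their part was not tested. Of 10 fibroblast markers, 4 rose at 8 weeks and 3 at 16 weeks, and none fell, beside 3.99% and 1.84% of all genes that rose at these times. At 16 weeks 0 rose without KO-16 replicate 2 or 4 or WT-16 replicate 1, 2, 4 or 5, 1 without KO-16 replicate 3, 2 without WT-16 replicate 3 and 5 without KO-16 replicate 1 or 5. Their sum was 1146 to 1665 CPM in KO-8 and 1130 to 1206 CPM in WT-8, and 934 to 1718 CPM in KO-16 and 714 to 984 CPM in WT-16. Those that rose at both times were Col1a1 and Col1a2, themselves matrix collagens, and Pi16, and the other at 8 weeks was Lum, a matrix proteoglycan. Over the list the median log2 fold change was 0.30 at 8 weeks and 0.65 at 16 weeks, against -0.01 and 0.003 over all genes. Dcn had 0.30 (adjusted p = 0.171) and 0.77 (adjusted p = 0.0524, edgeR) at these times. Its levels were 320 to 749 CPM in KO-16 and 227 to 302 CPM in WT-16. Lum had 0.86 (adjusted p = 0.0590, edgeR) at 16 weeks. Pdgfra, a surface receptor that marks resident fibroblasts, had log2 fold changes of 0.22 (adjusted p = 0.191) and 0.08 (adjusted p = 0.723, edgeR) at 8 and 16 weeks. Gsn and Ddr2 had -0.01 each at 16 weeks. Lum, Pdgfra, Gsn and Ddr2 were named after their values were seen. None of 10 macrophage markers passed at 8 weeks and none of 8 at 16 weeks (edgeR and limma-voom), with 3 and 4 at an unadjusted edgeR p under 0.05, while DESeq2 called 1 and 2 higher. The macrophage sum was 187 to 193 CPM in KO-8, 169 to 205 CPM in WT-8, 141 to 206 CPM in KO-16 and 125 to 167 CPM in WT-16. Spp1 was nearly absent from the same libraries.

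The calls of other cell types stand beside 3.99% of all genes called higher and 4.29% called lower at 8 weeks, and 1.84% called higher at 16 weeks. Smooth muscle and pericyte markers had 3 rises and 1 fall among 9 at 8 weeks, and 1 rise, Tagln, at 16 weeks. Endothelial markers had 3 rises of 8 at 8 weeks and 1, Tie1, at 16 weeks. The calls of Tagln and Tie1 were lost without KO-16 replicate 2, 3 or 4 or WT-16 replicate 1, 2, 4 or 5, and the endothelial rises became 6 and 3 without KO-16 replicates 1 and 5. Epicardial markers had 1 fall of 6, Wt1, at 8 weeks and none of 4 at 16 weeks by edgeR, DESeq2 or limma-voom, with 1 at an unadjusted p under 0.05. For chondrocytes and valves, a list that matters because Cilp is known from cartilage, 2 of 6 markers could be tested. Fmod rose at 16 weeks, at 3.39 (adjusted p = 0.0483, edgeR), at 1.33 to 55.6 CPM in KO-16 and 0.459 to 2.67 CPM in WT-16. It was 2.23 without KO-16 replicate 3 and 3.99 without WT-16 replicate 3. The call was lost with limma-voom and without any 1 library other than KO-16 replicates 1 and 5. The summed list was at 2.94 to 65.6 CPM in KO-16 and 1.77 to 4.60 CPM in WT-16. Of 8 cardiomyocyte markers, Ryr2 and Pln fell at 8 weeks, and at 16 weeks none passed by edgeR or limma-voom, 4 had an unadjusted edgeR p under 0.05, and DESeq2 called 2 lower. Erythroid markers, a sign of retained blood, had 1 fall of 6 at 8 weeks. The falls became 0 without KO-8 replicate 1 or 3 or WT-8 replicate 2, 3 or 4, and 3 to 5 without WT-8 replicate 1, KO-8 replicate 4 or WT-8 replicate 5. At 16 weeks no erythroid marker of 4 passed by edgeR or limma-voom, 4 had an unadjusted edgeR p under 0.05, and DESeq2 called 1 higher. Their sum was 47.5 to 1129 CPM in KO-16 and 53.1 to 132 CPM in WT-16.

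The genes most like each member were found by the correlation of log2 CPM, taken as the deviation from the group mean, over the 19 libraries. Since 75.3% to 88.0% of the squared deviation of the 7 genes came from the KO-16 libraries, r over the 14 libraries without them is given second. All values share the same libraries and their depth, and they are a description. Postn and Cilp had the same nearest gene, Fstl1, which encodes a secreted glycoprotein of the SPARC family, at r = 0.98 (0.86 without KO-16) for Postn and 0.94 (0.84) for Cilp. Col8a1 (0.95, 0.78) and Col5a2 (0.94, 0.61), both collagens, came next for Postn, and Fam198b (0.93, 0.75) and Dpysl3 (0.93, 0.73) for Cilp. Fibronectin was most like the collagen gene Col1a2 (0.95, 0.86), Ltbp2 (0.95, 0.88) and the member Fbn1 (0.94, 0.69). Fbn1 in turn was most like Col5a2 (0.97, 0.82), Col1a2 (0.94, 0.74) and Serpinf1 (0.94, 0.79). Eln was nearest to Arhgef40 (0.94, 0.82), Reln (0.92, 0.89) and Mfap5 (0.91, 0.80), the last a microfibril gene.

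Tnc was most like Vcan (0.93, 0.80), a matrix proteoglycan, followed by the transporter gene Slc16a6 (0.89, 0.72) and Myh7 (0.89, 0.60), the slow myosin heavy chain of cardiomyocytes. Myh7 ranged from 234 to 1598 CPM over the KO-16 libraries. Sparc was most like Synpo2l (0.94), Uck2 (0.94) and Ppp1r9b (0.92), a muscle actin-binding protein, a nucleoside kinase and a phosphatase subunit, at 0.67, 0.62 and 0.64 without KO-16. For Spp1, at a few counts per library, the nearest were Aldh1a1 (0.84, 0.86), Cdk14 (0.84, 0.81) and Slc43a3 (0.82, 0.88), and KO-16 supplied 21.9% of its squared deviation. Correlations at such counts carry no finding.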

How the data were processed

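The authors deposited counts of read pairs per gene, made per the file headers with featureCounts 1.6.3 (pairs, reverse strand, largest overlap) on GRCm38, Ensembl release 96. Tools listed without role or order in the submitters' processing notes were FastQC, STAR, RSEM, SAMtools and cutadapt 1.16. There were 29 files for 19 libraries; the 2 files of each 16-week sample were summed. Of 55536 genes, 55450 had a symbol in the name table used.

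CPM were computed here as counts over library size times a TMM factor (0.455 to 1.48, over all 19 libraries). Each time was fitted alone with edgeR 4.0.16 in R 4.3.3 (quasi-likelihood, filterByExpr, Benjamini-Hochberg adjustment, threshold 0.05). Log2 CPM had a prior count of 2. Fits were run per time because the 16-week libraries spread more. SEs were derived from the fold change and the F statistic. Tables and figures used Python 3.11.15, numpy 2.4.6, pandas 2.3.3 and matplotlib 3.10.9, and alternatives used DESeq2 1.42.0 and limma 3.58.1. Sequences came from RefSeq promoters on GRCm38.p6; 6 of the 8 genes matched.

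The members, the 5 gene lists and the 8 marker lists were chosen with earlier results of these data known. Named were the members, Mpc1, from each list the up to 4 genes with the lowest adjusted p at 16 weeks and the 3 genes most like each member with a mean of at least 1 CPM; exceptions are marked, and 1 gene of a list is not reported here. The alternatives tried were upper-quartile and RLE factors, no filter, DESeq2, limma-voom, all 19 libraries, 18S and mitochondrial genes left out, each library left out, male libraries left out, and either 16-week file alone. A fit to the 16-week libraries over 20% 18S alone was added after seeing the data.

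The fit was tested on simulated data. With KO-16 and WT-16 sizes (12597 genes) it recovered 19 of 67 genes changed 1.5-fold, 38 of 67 changed 2-fold and 64 of 66 changed 4-fold, with 6 false calls in 127. With KO-8 and WT-8 sizes (15173 genes) the numbers were 42, 60 and 63, and 12 of 177 calls were false. In the simulation genes varied independently of each other. The numbers thus do not cover shifts shared by many genes of a library.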

Additional observations from a re-analysis of the deposited data

Results flagged for a closer look

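A library stood apart from its group in 2 of 36 sets of values checked, a set being 1 gene in 1 group; by chance about 1 set in 20 would. Cilp was at 49.4 CPM in KO-8 replicate 3, against 13.7 to 19.3 CPM in the other KO-8 libraries. The gap to the next library was 0.842 of the range of the group, above the limit of 0.829 for 4 samples (Dixon's test at the 95% level). Postn was also highest in this library, at 76.6 CPM. Spp1 was at 0.919 CPM in WT-16 replicate 5, against 0 to 0.184 CPM in the other WT-16 libraries, a gap of 0.800 of the range against a limit of 0.710 for 5 samples. That value rests on 4 read pairs.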

How the results depend on the processing

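At 8 weeks the log2 fold changes of the 7 tested members stayed positive in all 16 alternatives, and 15 kept every call. The fit to all 19 libraries ended them, with Postn at 0.80, Cilp at 2.24, Fn1 at 0.57, Tnc at 1.48, Sparc at 0.69, Fbn1 at 0.51 and Eln at 0.72. At 16 weeks, over the alternatives that kept the gene, Postn ranged from 2.44 to 3.10, Cilp from 4.53 to 5.63, Fn1 from 1.56 to 2.08, Tnc from 2.89 to 3.83, Sparc from 1.31 to 1.65, Fbn1 from 1.46 to 1.81 and Eln from 1.72 to 2.38. The count of all genes called at 16 weeks (343, 226 higher and 117 lower in KO) was less stable. It was 995 (597 higher, 398 lower) with no filter, 1144 (621 and 523) with DESeq2, 3157 (1728 and 1429) with all 19 libraries and 12 (8 and 4) without the male libraries. Calls higher and lower were 112 and 244 with limma-voom. With the 16-week libraries over 20% 18S alone, 142 were higher. That fit kept KO-16 replicates 4 and 5 and WT-16 replicates 1, 2, 4 and 5. Leaving out 1 library gave 30 to 1855 calls, 21 to 993 higher and 9 to 862 lower. For the lists at 16 weeks, no filter and DESeq2 each gave 3 receptors and 2 TGF-beta genes higher, and limma-voom gave 0 elastic fibre genes and 1 other injury gene. All 19 libraries gave 4 receptors, 11 elastic fibre genes, 1 relative, 10 other injury genes and 4 TGF-beta genes. The libraries over 20% 18S alone gave 3 receptors, 4 elastic fibre genes higher and 0 lower, and 2 TGF-beta genes. Without the male libraries all lists had 0. The later file alone gave 2 receptors, and it and upper-quartile factors each gave 0 elastic fibre genes lower. For the marker lists, leaving out 1 library at 16 weeks gave 0 to 5 fibroblast, 0 to 3 smooth muscle, 0 to 2 macrophage, 0 to 6 endothelial, 0 to 2 chondrocyte and 0 to 4 erythroid markers higher and 0 to 3 cardiomyocyte markers lower, and at 8 weeks 3 to 4 fibroblast, 2 to 3 smooth muscle and 2 to 4 endothelial markers higher and 0 to 5 erythroid markers lower. At 16 weeks leaving out 1 library gave 0 to 5 receptors, 0 to 11 elastic fibre genes higher and 0 to 1 lower, 0 to 1 relative, 0 to 9 other injury genes and 0 to 3 TGF-beta genes. At 8 weeks, upper-quartile factors gave 0 other injury genes lower and 2 TGF-beta genes higher, and DESeq2 also 2 TGF-beta genes. With no filter 2 receptors were lower, 1 relative higher, 3 other injury genes lower and 3 TGF-beta genes higher. All 19 libraries gave 31 calls (17 higher, 14 lower) and 0 in each list. Leaving out 1 library gave 873 to 1183 calls, 439 to 558 higher and 416 to 625 lower, 6 to 9 elastic fibre genes, 2 to 4 other injury genes higher and 0 to 2 lower, 0 to 2 TGF-beta genes, 0 to 1 relative higher and 0 to 2 lower, and 1 receptor higher and 0 to 1 lower. Some genes with no call changed sign. Upk3b at 16 weeks had 0.060 with limma-voom and -0.31 to 0.18 with 1 library left out. At 8 weeks Lrrn4 had -0.00038 with all 19 libraries and -0.10 to 0.082 with 1 left out, where Msln had -0.16 to 0.27, Itgb3 -0.030 to 0.26, Upk3b -0.26 to 0.019 and Tek -0.075 to 0.035. The cause of these shifts was not tested. No paired analysis was possible because the labels give no replicate number shared between groups. Depth limits Spp1, and Tnc and Cilp in WT-16.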
